A study of Mus musculus with 6 samples.

Results

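Dll3, Dtx4, Nrarp and Hes6 are 4 genes around the Notch pathway, and all 4 were lower in otocysts of mouse embryos homozygous for the Gt allele of Chd7 than in wild type otocysts. They make up 4 of the 1167 genes that appear in at least 1 of the 4 deposited lists. They were taken by exact gene symbol and had been selected on their fall in the homozygous comparison, so the size and adjusted p of that fall are given as a description and support nothing by themselves. The otocyst is the epithelial vesicle that forms the inner ear and sheds the neuroblasts of its ganglion. RNA with poly(A) tails was sequenced from otocysts at embryonic day 10.5 in 2 Chd7 Gt/Gt (homozygous), 2 Chd7 Gt/+ (heterozygous) and 2 Chd7 +/+ (wild type) libraries, all of the strain B6129SF1/J. In mouse nomenclature Gt stands for a gene trap, an insertion that disrupts a transcript. The labels restrict the allele to no tissue. Chd7 encodes a nucleosome remodeller of the chromodomain helicase family. Its own RNA was at 22.4% of wild type in homozygotes and 67.1% in heterozygotes in the authors' deposited table.

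Notch is a receptor cleaved when a ligand of the Delta or Jagged type binds it from a neighbouring cell. The released intracellular part joins the DNA-binding protein CSL (Rbpj) and Mastermind in the nucleus and switches on genes such as those of the Hes and Hey repressors, which hold back proneural factors. In the otic epithelium this exchange limits how many cells become neuroblasts, and later it separates hair cells from supporting cells. The members take different places in it. Dll3 is a divergent Delta-like ligand that stays largely inside the cell and inhibits Notch there. Dtx4 is a ubiquitin ligase of the Deltex family, first known in Drosophila as regulators that bind the receptor. Nrarp is a small ankyrin-repeat protein that is switched on by Notch and promotes loss of its active form. Hes6 is a helix-loop-helix protein that opposes Hes1 and favours neuronal differentiation, and it is a target of proneural factors more than of Notch. The group therefore holds a ligand, a receptor regulator, a feedback inhibitor and a proneural target, not feedback genes alone.

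The promoters are shown because proneural factors and CSL, which act around these genes, are known to bind short motifs. Of the 4 members, 3 had an entry among the RefSeq promoter windows of build GRCm38.p6, each running from 250 bases before to 50 bases after an annotated start, and Dtx4 had none. Hes6 has a pair of annotated starts, so 4 windows are printed, each 5′ to 3′ on the strand of the gene. Capitals mark every match to the E-box CANNTG, the motif bound by proneural and other helix-loop-helix proteins.
Dll3, minus strand, chr7:28301736-28302035: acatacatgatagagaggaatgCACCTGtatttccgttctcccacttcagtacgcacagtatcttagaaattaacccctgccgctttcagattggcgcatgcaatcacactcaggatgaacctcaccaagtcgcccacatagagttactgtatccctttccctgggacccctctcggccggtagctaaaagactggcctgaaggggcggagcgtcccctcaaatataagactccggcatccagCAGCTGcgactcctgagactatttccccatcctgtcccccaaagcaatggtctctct
Nrarp, plus strand, chr2:25180508-25180807: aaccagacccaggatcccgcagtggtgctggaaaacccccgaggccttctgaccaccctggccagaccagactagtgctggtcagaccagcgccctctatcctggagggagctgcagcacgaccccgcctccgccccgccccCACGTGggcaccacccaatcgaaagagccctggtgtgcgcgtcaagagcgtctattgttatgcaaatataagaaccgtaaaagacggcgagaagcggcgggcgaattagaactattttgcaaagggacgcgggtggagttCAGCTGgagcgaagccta
Hes6, outer start, minus strand, chr1:91413989-91414288: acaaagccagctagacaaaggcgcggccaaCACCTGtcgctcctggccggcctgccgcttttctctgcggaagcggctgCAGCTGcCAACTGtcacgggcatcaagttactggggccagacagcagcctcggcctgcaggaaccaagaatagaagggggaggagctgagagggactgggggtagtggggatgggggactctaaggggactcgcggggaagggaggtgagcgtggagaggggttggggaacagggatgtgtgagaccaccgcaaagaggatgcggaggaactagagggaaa
Hes6, inner start, minus strand, chr1:91413173-91413472: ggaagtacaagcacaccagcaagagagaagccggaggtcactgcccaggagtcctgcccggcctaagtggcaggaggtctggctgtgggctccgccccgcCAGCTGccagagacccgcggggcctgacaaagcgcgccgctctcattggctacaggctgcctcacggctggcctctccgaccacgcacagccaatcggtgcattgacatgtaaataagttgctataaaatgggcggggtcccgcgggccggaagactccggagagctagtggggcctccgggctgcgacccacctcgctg

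Each of the 4 windows, which come from 3 genes, held the E-box form CAGCTG. This form is its own reverse complement and is counted among the CANNTG matches. In Dll3 it began 7 bases before the start and a CACCTG began 228 bases before it. Nrarp had a CAGCTG that began 32 bases after the start and a CACGTG that began 108 bases before it. The outer Hes6 window had a CACCTG 220 bases before the start, a CAGCTG 171 bases before it and a CAACTG 164 bases before it, and the inner window had a CAGCTG that began 150 bases before its start. Among all 32851 windows of the same length, 16.3% held CAGCTG and 72.3% held any CANNTG. Over the windows of genes listed as lower in homozygotes CAGCTG was in 20.2%, any CANNTG in 65.9% and the CSL core TGGGAA in 23.1%. Over those of genes listed as higher the shares were 17.5%, 64.8% and 25.8%, in the same order of motifs. This CSL core, searched as such and as TTCCCA on the other strand, was in 0 of the 4 windows and in 25.6% of all windows. Of the 8 other Notch pathway genes listed in homozygotes that had an entry, 4 held the CSL core in at least 1 window: Lfng, Maml2, Spen and Hes5. Any CANNTG was also in 4 of the 8, and CAGCTG in Lfng alone. These counts are of genes, and Fbxw7 and Maml2 have more than 1 window, so they cannot be set against the shares of windows. All matches given here are letter matches in a short window and not binding sites.

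The homozygous comparison gives each member's fold and adjusted p as the authors deposited them. The deposited lists hold comparisons and not libraries, so no value per otocyst library, standard error or depth stands behind a fold, and overlap between the libraries could not be examined. In the authors' deposited table Dtx4 fell to 31.5% of wild type (log2 fold -1.67 with an adjusted p of 1.49e-05). Dll3 fell to 31.9% of wild type in the authors' deposited table (log2 fold -1.65 with an adjusted p of 0.00513). These folds, of a ubiquitin ligase and of a ligand, are nearly equal, while their adjusted p-values lie far apart. Nrarp was at 34.0% of wild type in the authors' deposited table (log2 fold -1.56 with an adjusted p of 0.000197). For Hes6 the authors' deposited table gives 38.8% of wild type (log2 fold -1.37 with an adjusted p of 0.00369). All 4 members were listed as lower, where 61.7% of all listed homozygous genes were lower and 2.96% of 21900 annotated protein-coding genes were listed as lower. Nothing is read from that contrast of shares, as the members were taken from this list. The number of genes the authors tested is not given in the sources used here, so the share of tested genes listed as lower is unknown. Because whole otocysts were sequenced, fewer cells of a type and less RNA per cell cannot be told apart.

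**Figure D1:**
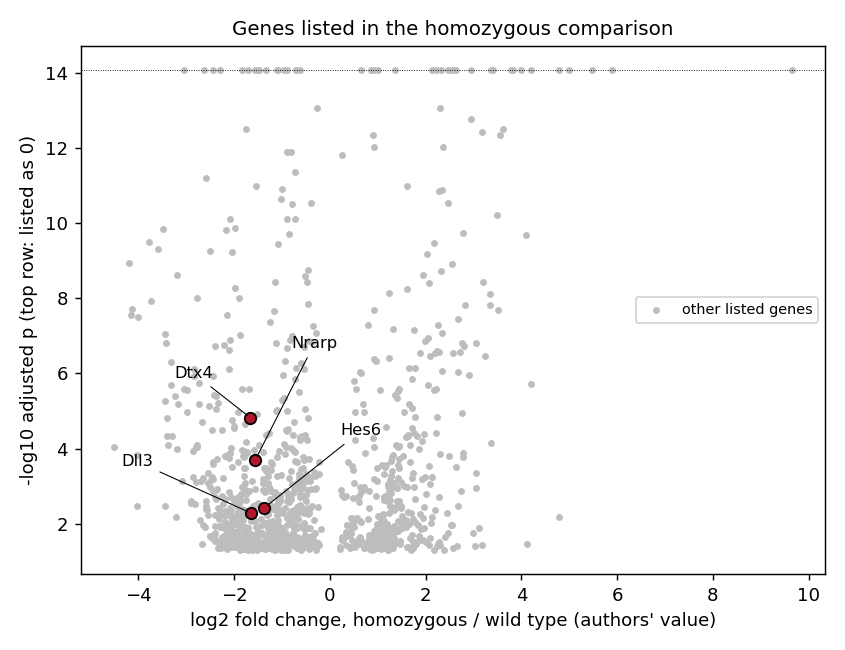
Every gene listed in the homozygous comparison is placed by its log2 fold change (homozygous / wild type, horizontal) and by the -log10 of its adjusted p (vertical), both the authors' values. Red points are the 4 members, at log2 -1.67 to -1.37 and in the middle of the lower genes, and genes with an adjusted p listed as 0 stand on the dotted top row.

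The 4 falls span 0.30 on the log2 scale, and with no error for any fold it cannot be said that they differ. Among the 669 lower genes the members were neither the largest nor the smallest falls. By the authors' deposited table their log2 folds had a median of -1.60, against -1.35 over all lower genes, whose folds run from -4.50 to -0.19. By size of fall Dtx4 ranked 261, Dll3 264, Nrarp 285 and Hes6 329 of 669. Larger falls than that of Dtx4 were listed for 38.9% of the lower genes, and larger ones than that of Hes6 for 49.0%. By adjusted p the order changes, with Dtx4 at rank 110, Nrarp at 169, Hes6 at 308 and Dll3 at 343. Of the 43 lower genes whose log2 fold lies within 0.1 of that of Dtx4, itself included, 3 had a smaller adjusted p. Around Dll3, 16 of the 47 such genes did, around Nrarp 7 of 48, and around Hes6 15 of 53. At an adjusted p under 0.001 Dtx4 and Nrarp remain, 2 of the 4.

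The 2 genes with the homozygous fold nearest to each member's were taken, over this 1 comparison and among genes not listed in heterozygotes. Symbols that end in Rik, start with LOC or are Gm with digits were passed over. The authors' adjusted p-values of the genes taken run from 0.00118 (BC068157) to 0.0424 (Spred3). As 43 to 53 lower genes, the member included, lie within 0.1 of each member's log2 fold, these neighbours are close in fold alone. For Dll3 they were the cell-cycle arrest gene Rprm (log2 -1.65) and the neuronal G-protein subunit gene Gng3 (-1.66) in the authors' deposited table. For Dtx4 they were Mfap3l (log2 -1.66) and again Gng3 in the authors' deposited table. Nrarp stood beside BC068157 and the polo-like kinase gene Plk3, both at log2 -1.56 in the authors' deposited table. Hes6 stood beside Spred3, a MAPK inhibitor gene (log2 -1.37), and the synaptotagmin family gene Syt11 (-1.36) in the authors' deposited table. Each of these differs from its member by less than 0.01 on the log2 scale.

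In heterozygotes 0 of the 4 members were listed in either direction. The background is low there, with 0.616% of annotated protein-coding genes listed, 0.434% listed as lower, and 68.8% of the 138 listed genes lower. The heterozygous lists hold only genes under the authors' threshold of 0.05 and no unadjusted p, so a member that is not listed may have moved less, varied more or been measured too weakly. Of the 95 lower genes 30 had a log2 fall of less than 0.5, and the smallest change in either direction was 0.07 in the authors' deposited table. With no levels for the members, these values do not say whether a small change in a member would have been listed. Whether the members changed more in homozygotes than in heterozygotes was not tested. Both comparisons share the same 2 wild type libraries.

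The rest of the pathway was read from a list of 67 genes in 12 roles that includes the members. Of these, 13 were listed in homozygotes, 12 lower and 1 higher, a share of 19.4% where 4.75% of annotated protein-coding genes were listed. Without the members it was 9 of 63 genes, with 8 lower (12.7%) and 1 higher, and the listed ones had a median of -1.02 on the log2 scale by the authors' deposited table. The list was written with earlier results of these data known, so the shares describe it and do not test it.

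Among the ligands of the Delta and Jagged families Dll3 was the 1 of 5 listed, and Dll1, Dll4, Jag1 and Jag2 were not. Of the non-canonical ligands, Dner, a transmembrane protein of neurons, was lower (log2 fold -1.63 with an adjusted p of 0.0495) in the authors' deposited table. Dlk1, a Delta-like protein without the receptor-activating domain, went the other way and was the only listed pathway gene to rise, to 3.05 times wild type (log2 fold 1.61 with an adjusted p of 5.73e-09) in the authors' deposited table. Of the 4 receptors only Notch1 was listed, at 52.2% of wild type (log2 fold -0.94 with an adjusted p of 0.0159) in the authors' deposited table. Lfng, the fringe enzyme that adds sugars to the receptor and alters which ligand it answers, was at 47.6% of wild type (log2 fold -1.07 with an adjusted p of 0.0319) in the authors' deposited table. The 8 receptor cleavage genes, such as Adam10 and Ncstn, and the 4 ligand ubiquitin ligase genes had 0 listed members. Within the Deltex family Dtx4 was the 1 of 5 listed.

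Of the 7 genes in the feedback and target role, Nrarp, Heyl and Hes5 were lower, and Hes1, Hes7, Hey1 and Hey2 were not listed. Heyl, a Hey family repressor, was at 30.7% of wild type (log2 fold -1.70 with an adjusted p of 0.00555) in the authors' deposited table. Hes5, a repressor of proneural genes, was at 37.6% (log2 fold -1.41 with an adjusted p of 0.0171) in the authors' deposited table. The folds of these target genes lie on either side of that of Nrarp. Smaller falls were listed for the Mastermind gene Maml2 (log2 -0.76), the Notch-degrading ubiquitin ligase gene Fbxw7 (-0.76) and the CSL co-repressor gene Spen (-1.02) in the authors' deposited table. Rbpj, which encodes CSL itself, was not listed.

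**Figure D2:**
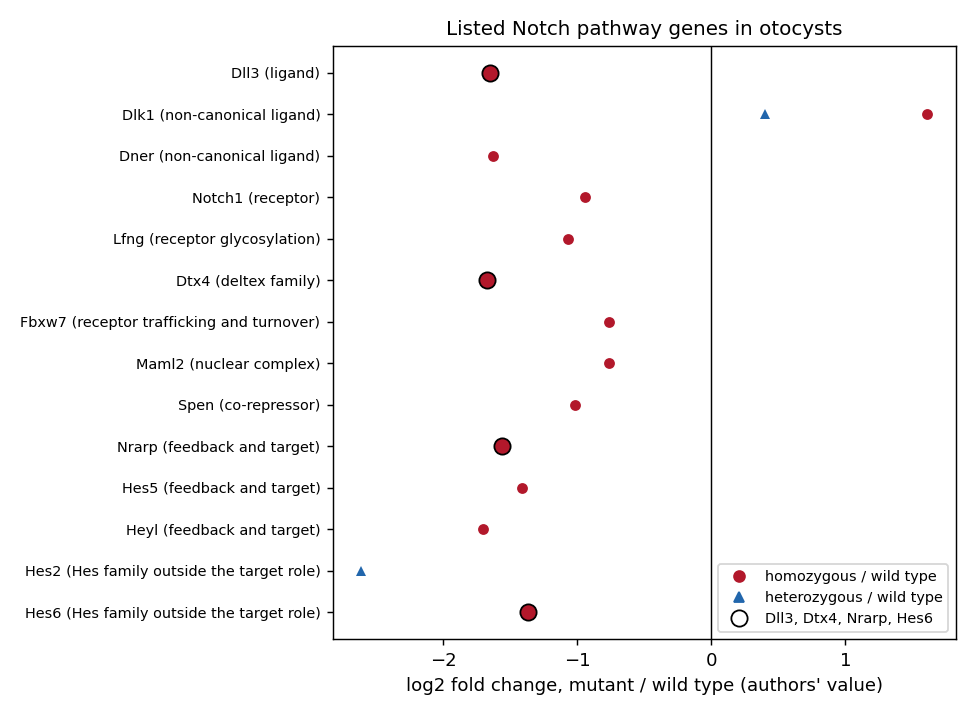
Each row is a Notch pathway gene that appears in a deposited list, with its role in brackets, and the horizontal axis is the authors' log2 fold change of mutant over wild type. Red circles are homozygous and blue triangles heterozygous values, and the outlined circles of the 4 members lie between -1.67 and -1.37, with Dlk1 alone to the right of 0.

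Heterozygotes had 2 listed genes of the 67, and neither was a member. Dlk1 was higher here too (log2 fold 0.40 with an adjusted p of 0.0359) in the authors' deposited table. Hes2, a Hes family gene, was at 16.3% of wild type (log2 fold -2.61 with an adjusted p of 0.0437) in the authors' deposited table, and it was not listed in homozygotes.

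Dll3 and Hes6 are also known targets of proneural factors, and genes of that programme fell in homozygotes beside them. Apart from these members, 11 of 28 genes in the proneural list were lower and 0 higher. That is 39.3%, where 2.96% of annotated protein-coding genes were listed as lower. These had a median of -2.04 on the log2 scale, against -1.35 over all lower genes, by the authors' deposited table. This list too was written with earlier results of these data known, so its share describes it and tests nothing. In homozygotes 0 of the 4 genes in its proneural factor role were listed. Neurog1, the proneural factor of otic neuroblasts, was not listed. The downstream factor genes Neurod4 (log2 -4.13), Myt1 (-2.84), Isl1 (-2.39), Nhlh2 (-2.34) and Nhlh1 (-2.09) were lower in the authors' deposited table. So were Insm1 (log2 -2.04), Pou4f1 (-1.96), Neurod1 (-1.83), the adaptor Btbd17 (-1.54), and the co-repressors Cbfa2t3 (-0.99) and Cbfa2t2 (-0.70) in the authors' deposited table. Except for Btbd17, Cbfa2t3 and Cbfa2t2, each of these log2 folds is a larger fall than those of Dll3 and Hes6. Mfng and Dll1, targets of the same factors and Notch genes as well, were not listed. The part of the proneural programme in the falls of Dll3 and Hes6 was not tested. In heterozygotes 3 of the 30 genes of the whole proneural list were lower and 2 higher, where 0.616% of annotated protein-coding genes were listed. Atoh1 (log2 -1.77), Tbx20 (-1.70) and Neurod4 (-0.93) were lower, and Pou4f1 (0.54) and Ebf3 (0.21) higher, in the authors' deposited table.

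Several of the members are also expressed outside the otic epithelium, and markers of other tissues moved in the same lists. Levels were not available, so the labelled tissue could not be checked against its markers and summed marker levels cannot be given. For the marker counts here and in the next paragraph, 4.75% of annotated protein-coding genes were listed in homozygotes and 2.96% were lower. In heterozygotes 0.616% were listed and 0.434% were lower. The marker lists were chosen with earlier results of these data known, so their counts describe them and test nothing. Otic epithelium markers had 7 lower and 0 higher of 29 in homozygotes, among them, beside the Notch gene Lfng, the regulators Eya1 (log2 -1.33), Otx1 (-4.20) and Tbx3 (-1.16) in the authors' deposited table, and 0 listed in heterozygotes. The neural tube also expresses Dll3, Nrarp and Hes6, and its markers had 7 lower, 1 of them the Notch target Hes5, and 2 higher of 24 in homozygotes. Examples are Lhx2 (log2 -3.16), Barhl1 (-1.99) and, higher, Wnt1 (3.19) in the authors' deposited table. Heterozygotes had 8 lower and 0 higher of the same 24, with Shh (log2 -5.54), Nkx6-1 (-2.12) and Barhl1 (-1.79) in the authors' deposited table. Periotic mesenchyme markers had 3 lower and 1 higher of 17 in homozygotes, with Postn (log2 -2.62), Pou3f4 (-4.00) and Prrx1 (-0.89) in the authors' deposited table, and 3 lower in heterozygotes. The part of these tissues in the members' falls was not tested.

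Dll3 is best known for its role in somite formation, in presomitic mesoderm. A mesoderm list, labelled presomitic and cycling mesoderm but not confined to it, had 3 lower genes of 14 in homozygotes. They were Dll3 and Lfng themselves and Uncx (log2 -2.20 in the authors' deposited table). The other 11 genes of that list were not listed. The presomitic mesoderm genes T, Tbx6, Msgn1 and Mesp2 were not listed, and an unlisted gene may be unchanged or measured too weakly. In heterozygotes Pax1 alone was listed from that list, as lower (log2 -2.07 in the authors' deposited table). Endothelial markers had 2 higher and 0 lower of 14 in homozygotes, Pecam1 (log2 0.92) and Emcn (0.60) in the authors' deposited table, and 0 in heterozygotes. Of the blood list 2 of 17 were lower in homozygotes, Slc4a1 (log2 -1.31) and Hba-a2 (-1.47), and 4 in heterozygotes, among them Hba-a1 (-0.30), Hbb-b2 (-2.44) and Slc4a1 (-0.44), in the authors' deposited table. The globin genes share reads with near-identical copies. The part of mesoderm, endothelium and blood in the members' falls was not tested.

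**Figure D3:**
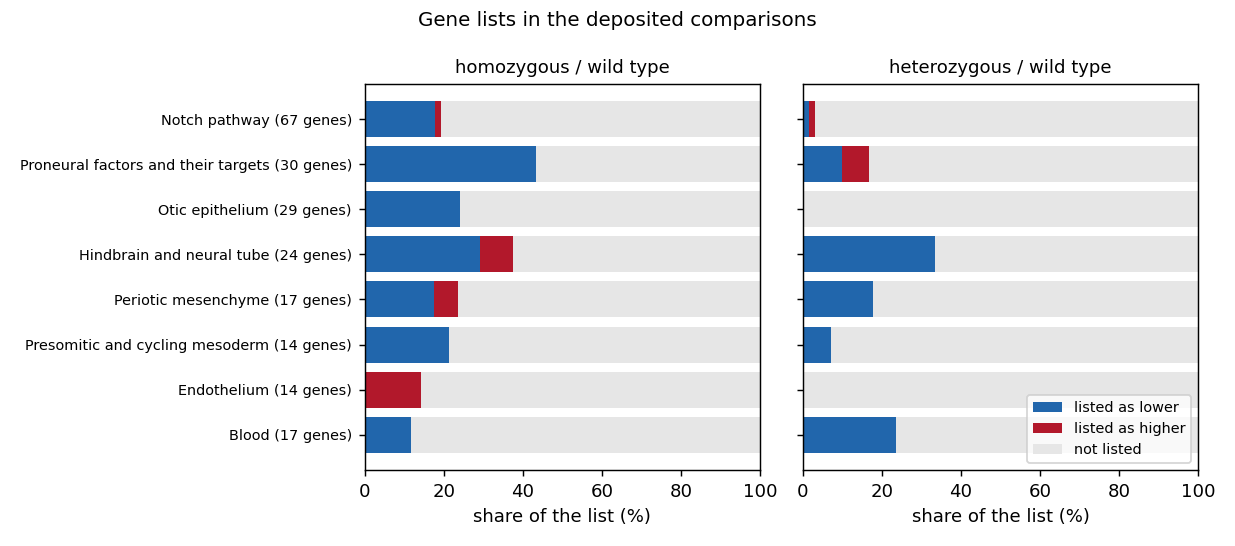
Bars show, for each gene list, the share of its genes (horizontal, %) listed as lower (blue), listed as higher (red) and not listed (grey), for the homozygous comparison on the left and the heterozygous one on the right. Of the Notch list 17.9% was lower in homozygotes and 1.49% in heterozygotes. The 17.9% includes the 4 members, which were selected on that fall, and is 12.7% without them. Of the hindbrain list 29.2% was lower in homozygotes and 33.3% in heterozygotes. Among annotated protein-coding genes 2.96% were listed as lower in homozygotes and 0.434% in heterozygotes.

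Lower and higher genes of the homozygous comparison differed in median transcript length, and a heat shock gene and a glucose transporter gene were much higher. Taking each gene's longest transcript in GENCODE M21, the median length was 4868 nt for lower genes and 2698 nt for higher genes. Hes6 (1573 nt), Nrarp (2582 nt) and Dll3 (2618 nt) are shorter than both medians, and Dtx4 (5226 nt) is longer than both. The part of transcript length in the members' falls was not tested. The heat shock gene Hspa1a was 44.3 times and the glucose transporter gene Slc2a3 18.3 times wild type in the authors' deposited table, a pair chosen after their values were seen. No list of stress genes was counted, and the part of a stressed state of the tissue in the members' falls was not tested. Exons of Dll3, Dtx4 and Hes6 overlap no exon of another annotated gene, whereas those of Nrarp overlap exons of Gm38287 on the opposite strand. With no statement on strand in the counting, reads from the shared stretch cannot be assigned to Nrarp or to Gm38287. The length of that stretch was not measured.

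**Figure D4:**
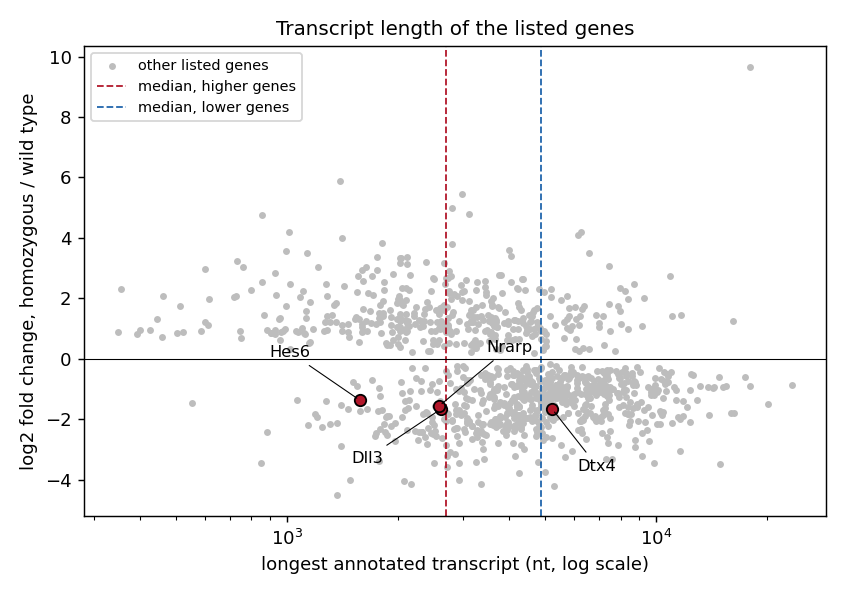
Listed homozygous genes are placed by their longest annotated transcript (nt, log scale, horizontal) and their log2 fold change (homozygous / wild type, vertical). Dashed lines mark the medians of 2698 nt for higher and 4868 nt for lower genes, and of the red members Dll3, Nrarp and Hes6 lie left of both lines and Dtx4 right of both.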

How the data were processed

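Otocyst poly(A) RNA was sequenced in 2 libraries for each of 3 Chd7 genotypes, grouped by the genotype label. Whether a genotype's libraries are separate embryos is not stated, so the p-values may reflect technical spread alone. The deposited workbook has 4 sheets, which list genes under an adjusted p of 0.05. Each sheet holds a log2 fold change of mutant over wild type, computed by the authors, and an adjusted p-value that the authors also deposited. Bowtie2 2.0.6, DESeq 1.22.1 and mm9 stand in the submitters' processing notes without roles. How reads were filtered and counted was not stated in any label or header.

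No values per library were used, so depth is unknown, and the count test planned at the outset could not be fitted. Percent of wild type is 2 to the power of the log2 fold. Members and gene lists were chosen with earlier results of these data known, and roles within lists follow general knowledge. Some genes are not reported here and were left out of the lists. Genes named are the members, listed genes of the Notch and proneural lists, the 2 nearest folds per member and, per tissue list and comparison, up to 3 listed markers. Unlisted genes are named, chosen after the lists were seen, where a role's absent genes are given, and Chd7, Hspa1a and Slc2a3 stand outside the rule. Symbols matched RefSeq GRCm38.p6 directly or by synonym for 1082 of 1085 homozygous and 138 of 138 heterozygous genes. The 21900 protein-coding genes there gave the background. Transcript lengths and exon overlaps came from GENCODE M21. Motif search was checked only for finding motifs planted in simulated sequence, without the reverse form TTCCCA, and false matches were not measured. Alternatives were stricter p, minimum folds, a narrower list, synonyms and shorter windows. Python 3.11.15 and matplotlib 3.10.9 were used.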

Additional observations from a re-analysis of the deposited data

How the results depend on the processing

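All 4 members stayed listed at an adjusted p under 0.01 and at a minimum log2 fold of 1 in size. At an adjusted p under 0.001 there were 2, Dtx4 and Nrarp, and at a log2 fold of at least 1.5 there were 3, without Hes6. The 13 Notch genes listed in homozygotes became 7 under 0.01 (6 lower), 3 under 0.001 (2 lower) and 6 at a log2 fold of at least 1.5 (5 lower), and Dlk1 was the higher gene each time. The narrower list of 29 ligand, receptor, fringe, Deltex, target and Hes genes had 8, all 8 lower. Proneural genes went to 7, all lower, under 0.001, against 13. The 2 heterozygous Notch genes became 0 under either stricter p and 1 (Hes2) at either fold minimum. Stricter settings keep fewer genes by construction. In the 250 bases before the start alone Nrarp kept 1 E-box match of 2. No paired analysis was possible because the files hold no values per library, and for the same reason no library could be left out. Depth per library is unknown, so which unlisted genes were measured too weakly cannot be said.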
